A study of Mus musculus with 8 samples.

Results

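Osteopontin and the surface receptors that bind it were followed in 4 mouse mammary carcinoma cell lines through 6 genes: Spp1, which encodes osteopontin, the receptor gene Cd44, the integrin alpha v gene Itgav, and the integrin beta chain genes Itgb1, Itgb3 and Itgb5. The genes were chosen by name for their known binding, with earlier results of these data known. They are 6 of the 53379 Ensembl genes counted, and all 6 passed the filter on low counts. The lines pB2 and pB3 came from tumours of MMTV-PyMT mice, in which the mouse mammary tumour virus promoter drives the polyoma middle T oncogene in the mammary epithelium. The lines Epcam hi and 687g came from tumours of MMTV-PyMT-Snail-IRES-YFP mice, which carry the same oncogene and, by its name, a reporter that joins the transcription factor Snail to a yellow fluorescent protein. All 4 lines are on the C57BL/6 background and were grown as adherent monolayers in 1 medium with no treatment named, with 2 mRNA libraries each. Each condition is thus a single line, the labels do not say whether the lines are clonal or whether the 2 libraries of a line come from separate cultures, so the spread behind each p-value may be technical only.

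Osteopontin is a secreted, acidic phosphoprotein of mineralised tissue, milk and inflamed tissue, and carcinoma cells often secrete it. It binds integrins through an Arg-Gly-Asp motif, which is read by alpha v paired with beta 1, beta 3 or beta 5, and it is also a ligand of CD44, whose better known ligand is the glycan hyaluronan. Alpha v needs a beta chain to reach the cell surface, whereas beta 1 pairs with many alpha chains besides alpha v.

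The stretch of the Spp1 coding sequence that carries the integrin-binding motif is shown because it defines why these receptors belong with this ligand. A search of the 294 codons of the annotated transcript found 1 in-frame run of arginine, glycine and aspartate codons, at codons 144 to 146, in exon 6 of 7. It lies on the plus strand at chr5:104439481-104439489 (GRCm38), and the 3 codons are in capitals, with 7 codons on either side.
Spp1 coding stretch: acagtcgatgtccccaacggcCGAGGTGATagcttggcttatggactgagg

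The 250 bases before the RefSeq start site of Spp1 (GRCm38.p6, chr5:104434861-104435110, plus strand) and of Cd44 (chr2:102901666-102901915, minus strand) are shown because these genes, ligand and receptor, varied most between lines in different orders. Capitals mark matches, on either strand, to AACCACA (a core read by RUNX factors) and AGGAAG (a core read by ETS factors).
Spp1 promoter: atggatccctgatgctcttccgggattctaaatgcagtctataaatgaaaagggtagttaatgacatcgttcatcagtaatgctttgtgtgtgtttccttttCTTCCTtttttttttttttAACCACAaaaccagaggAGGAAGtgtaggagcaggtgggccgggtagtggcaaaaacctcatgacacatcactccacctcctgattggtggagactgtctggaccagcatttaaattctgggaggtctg
Cd44 promoter: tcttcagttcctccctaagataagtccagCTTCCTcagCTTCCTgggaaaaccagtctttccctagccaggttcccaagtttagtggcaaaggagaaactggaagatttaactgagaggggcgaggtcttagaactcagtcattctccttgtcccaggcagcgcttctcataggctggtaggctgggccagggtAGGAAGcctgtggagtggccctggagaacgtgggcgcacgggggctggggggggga

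In GRCm38, Spp1 lies on chromosome 5 from 104435118 to 104441050 and Cd44 on chromosome 2 from 102811141 to 102901665. Itgav lies on chromosome 2 from 83724397 to 83806916, Itgb1 on 8 from 128685654 to 128733200, Itgb3 on 11 from 104608000 to 104670476, and Itgb5 on 16 from 33829665 to 33949338. All 6 are protein-coding genes with 1 gene ID each. Exons of Spp1 share 309 bases on the same strand with the predicted gene Gm42793, which had 0 to 208 counts per library. How reads in that stretch were assigned is not given in the sources used here, so Spp1 counts could miss some of its reads.

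Total counts ranged from 12442730 to 19149916 per library, and replicates correlated across genes with r of 0.976 to 0.993, lowest in Epcam hi. Values below are CPM, read counts divided by the scaled library total in the usual unit of that name, and log2 fold changes carry the standard error of the fit. Epcam, a marker of carcinoma epithelium, was highest in Epcam hi (1473 ± 89.9 CPM, SD, n = 2), lower in pB2 (566 ± 18.4) and pB3 (271 ± 9.60), and lowest in 687g (3.77 ± 0.111). All 5 tested epithelial markers were lower in 687g than in Epcam hi: Epcam, Cdh1 (1.32 against 488 CPM), Krt14 (0.453 against 2.55), Krt8 (226 against 472) and Krt18 (1115 against 2826). In pB3 against pB2 they were split, with 3 lower and 2 higher. The higher ones were Krt8 (480 against 99.4 CPM) and Krt18 (1975 against 212). The 6 listed epithelial markers summed to 1196 to 1279 CPM in pB2 and 2699 to 2886 in pB3. They summed to 5239 to 5286 CPM in Epcam hi and 1276 to 1417 in 687g. Macrophages are another known source of osteopontin and CD44. Their 8 markers summed to 104 to 109 CPM in pB2, 38.5 to 42.0 in pB3, 49.0 to 67.2 in Epcam hi and 59.0 to 68.7 in 687g, nearly all of it Cd14 and, in Epcam hi, Cd68. The defining leukocyte marker Ptprc had at most 7 counts in any library, and Adgre1 and Tyrobp at most 1 each. Osteoblast markers summed to 37.2 to 42.2 CPM in pB2, 13.8 to 15.0 in 687g and at most 0.648 in the other lines, and fibroblast markers to 60.4 to 81.1 in pB2 and at most 21.2 elsewhere. Endothelial markers stayed at 0.941 CPM or less in every library. In 687g against Epcam hi, the 2 tested osteoblast markers (Alpl and Ibsp) and the 3 tested fibroblast markers were all higher. Of the fibroblast markers, Pdgfrb was highest in 687g, at 10.8 CPM against 1.42 or less as line means elsewhere. Pdgfra and Col1a1 were instead highest in pB2, at 51.6 and 18.4 CPM against 6.03 and 1.59 in 687g. The part of these cell types in the results was not tested.

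**Figure D1:**
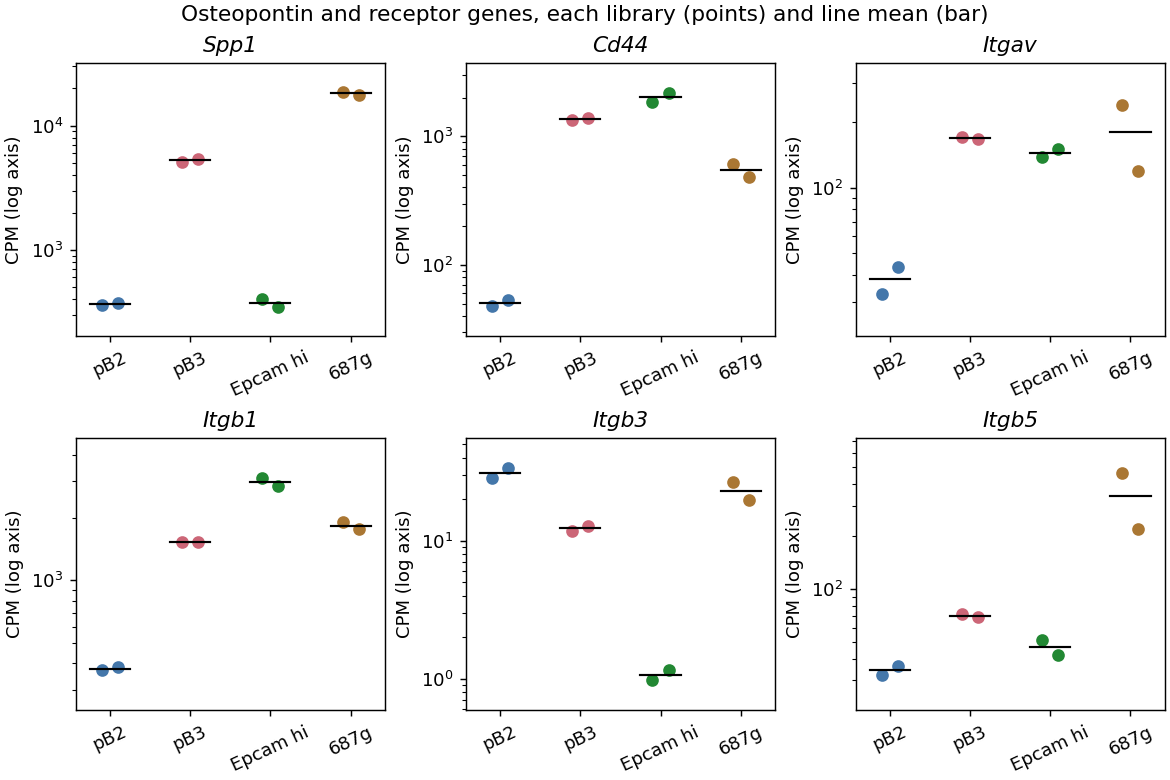
CPM of the 6 genes (log axes) in each library (points, 2 per line) with the mean of the line (bar). Spp1 was high in pB3 and 687g, Cd44 and Itgb1 were lowest in pB2 and highest in Epcam hi, and Itgb3 was lowest in Epcam hi, at 0.985 and 1.15 CPM.

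Spp1 parted the lines into a low and a high pair, one of each from either mouse model. The pB2 libraries held 360.3 and 371 CPM and the Epcam hi libraries 400.3 and 348 CPM, so these lines overlapped. The pB3 libraries held 5119 and 5393 CPM, and the 687g libraries 18663 and 17706 CPM. No pB3 or 687g library came near the low pair. In 687g the gene took 1.75% and 1.64% of all counts, and per kb of exon it ranked 1 and 2 among the 13693 and 13640 protein-coding genes detected in those libraries. In pB3 it ranked 5 and 4 per kb.

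Between the low lines, the difference in Spp1 was 0.03 ± 0.18 on the log2 scale (Epcam hi minus pB2, edgeR adjusted p = 0.893). Between the high lines, 687g exceeded pB3 by 1.79 ± 0.18 (adjusted p = 5.83e-06), a 3.46-fold difference. Within the reporter model, Spp1 was higher in 687g than in Epcam hi by 5.60 ± 0.22 (adjusted p = 3.18e-10), against 3.84 ± 0.20 for pB3 over pB2 (adjusted p = 2.94e-09). Vim, the mesenchymal filament gene, had the same high and low lines, with 2371 ± 86.6 CPM in pB3 and 2862 ± 745 in 687g against 14.0 ± 0.184 in pB2 and 26.9 ± 7.88 in Epcam hi. As these are bulk RNA samples, more cells that make the transcript and more transcript per cell cannot be told apart.

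Cd44, whose product also anchors the cell to hyaluronan, followed another order. The pB2 libraries held 47.7 and 53.4 CPM and the 687g libraries 608 and 482 CPM. The pB3 libraries held 1348 and 1381 CPM and the Epcam hi libraries 1863 and 2186 CPM. No 2 lines overlapped, and the lines low in Spp1 were at opposite ends of the Cd44 range. Epcam hi exceeded pB2 by 5.32 ± 0.22 on the log2 scale (adjusted p = 3.72e-10), a 40.04-fold difference. The 687g line, with the most Spp1, had less Cd44 than pB3 by 1.32 ± 0.19 (687g minus pB3 -1.32, adjusted p = 0.0001195). The step from pB3 to Epcam hi was 0.57 ± 0.18 (adjusted p = 0.0326). It was lost when either pB2 library, either pB3 library or Epcam hi replicate 2 was left out, with adjusted p of up to 0.237.

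Itgav, the alpha chain shared by the alpha v integrins, was low in pB2, at 32.5 and 43.5 CPM. The 687g libraries held 240.2 and 119 CPM, those of Epcam hi 138 and 149.6, and those of pB3 171 and 168. Each of the 3 other lines exceeded pB2: by 2.15 ± 0.28 on the log2 scale in pB3 (adjusted p = 2.25e-05), 1.92 ± 0.28 in Epcam hi (adjusted p = 5.29e-05) and 2.24 ± 0.28 in 687g (adjusted p = 1.30e-05; 1.65 without 687g replicate 1). Among those 3 lines no difference passed the threshold. Epcam hi against pB3 gave -0.23 ± 0.26 and 687g against pB3 gave 0.09 ± 0.26 (adjusted p = 0.552 and 0.870). The 687g libraries were 2.01-fold apart, and the comparison with Epcam hi rested on them: it was 0.32 ± 0.26 (adjusted p = 0.375), -0.25 without 687g replicate 1, and 0.78 without replicate 2, which then passed (adjusted p = 0.0141).

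Itgb1, the most widely shared integrin beta chain gene, had the same lowest and highest lines as Cd44. It was at 3099 and 2832 CPM in Epcam hi, 1897 and 1763 in 687g, 1523 and 1521 in pB3, and 372 and 383 in pB2. No lines overlapped, but 687g and pB3 differed by only 0.27 ± 0.17 on the log2 scale, which did not pass (adjusted p = 0.296). Epcam hi exceeded 687g by 0.70 (687g minus Epcam hi -0.70 ± 0.17, adjusted p = 0.00529); fitted on those 2 lines alone, that call ended (adjusted p = 0.0671). Its excess over pB2 was 2.97 ± 0.18 (adjusted p = 1.25e-08), a 7.86-fold difference.

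Itgb3, which makes alpha v beta 3, the classical osteopontin receptor of osteoclasts and endothelium, was highest where the other receptor genes were lowest. The pB2 libraries held 28.6 and 33.5 CPM, those of 687g 26.5 and 19.8, those of pB3 11.8 and 12.9, and those of Epcam hi 0.985 and 1.15, which were 14 and 21 counts. The lines did not overlap. Epcam hi was lower than pB2 by 4.84 on the log2 scale (Epcam hi minus pB2 -4.84 ± 0.28, adjusted p = 6.67e-09) and lower than pB3 by 3.52 (Epcam hi minus pB3 -3.52 ± 0.28, adjusted p = 4.63e-07). The difference between 687g and pB2 did not pass (-0.42 ± 0.21, adjusted p = 0.109), though it did with unscaled library totals (-0.67, adjusted p = 0.0183) and without 687g replicate 1 (adjusted p range over all alternatives 0.0183 to 0.431). The excess of 687g over pB3, 0.91 ± 0.22 (adjusted p = 0.00666), was no longer called without pB3 replicate 1, pB3 replicate 2 or 687g replicate 1, with adjusted p of up to 0.0950. Markers of platelets, which carry beta 3 with another alpha chain, summed to 1.81 to 3.04 CPM in every library.

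Itgb5, the beta chain of alpha v beta 5, a receptor for osteopontin and vitronectin, was highest in 687g. Its libraries held 459.5 and 221 CPM there, against 50.8 and 41.9 in Epcam hi, 71.5 and 69.4 in pB3, and 32.4 and 36.5 in pB2. Both 687g libraries lay above all others although they were 2.08-fold apart. The excess of 687g over pB3 was 2.27 ± 0.28 in log2 terms (adjusted p = 3.37e-05), or by 1.66 and 2.71 without 687g replicates 1 and 2. It exceeded Epcam hi by 2.88 ± 0.29 (adjusted p = 2.57e-06), or by 2.28 without 687g replicate 1. Among the lower lines, pB3 exceeded pB2 by 1.03 ± 0.27 (adjusted p = 0.00698), which did not pass when pB2 replicate 1 was left out (adjusted p = 0.0734). Epcam hi differed neither from pB2 (0.43 ± 0.27, adjusted p = 0.207) nor from pB3 (-0.60 ± 0.27, adjusted p = 0.115) at the threshold. Without 687g replicate 1 both of these passed, and the one with pB3 also passed without 687g replicate 2, without the filter on low counts and in a fit of those lines alone (adjusted p of 0.00904 to 0.262 over all alternatives, and 0.0477 to 0.516 for the one with pB2).

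The lines of each mouse model were then compared to ask whether ligand and receptors change together. In pB3 against pB2, 5 of the 6 genes were higher (Spp1, Cd44, Itgav, Itgb1 and Itgb5), 1 was lower (Itgb3), and their median log2 fold change was 2.08 against 0.02 over all genes tested. In that comparison 44.8% of the 15890 genes tested were called, 21.6% higher and 23.2% lower (3427 and 3689 genes, or 2766 and 4591 with unscaled library totals). In 687g against Epcam hi, 3 were higher (Spp1, Itgb3 and Itgb5), 2 were lower (Cd44 and Itgb1) and Itgav was not called, with a median of 1.60 against -0.03 over all genes. There 36.4% of genes were called, 18.4% higher and 18.0% lower. With those background shares, calls for most of the genes are not in themselves a mark of the group. Nor are the medians, as the genes were chosen with earlier results of these data known.

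Of the 6 genes, only Spp1 and Itgb5 were called higher in both pairs, which share no library. This rests on single libraries in part. The uncalled change of Itgav in 687g was 0.32, or -0.25 and 0.78 without 687g replicates 1 and 2. The rise of Itgb5 in pB3 was 1.03, or 0.94 without pB2 replicate 1. The change in 687g against Epcam hi minus that in pB3 against pB2 was 1.76 ± 0.25 for Spp1 and 1.85 ± 0.38 for Itgb5 (adjusted p = 7.915e-05 and 0.00167). Cd44 and Itgb1 rose in pB3 and fell in 687g, with differences between the pairs of -6.65 ± 0.29 and -2.71 ± 0.24 (adjusted p = 6.94e-10 and 9.22e-07). Itgb3 did the opposite, with 5.75 ± 0.35 (adjusted p = 2.14e-08), and Itgav gave -1.83 ± 0.38 (adjusted p = 0.00159). Without 687g replicate 1 the differences were 1.25 for Itgb5 and -2.40 for Itgav. All 6 differences passed, where 37.7% of all genes did.

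**Figure D2:**
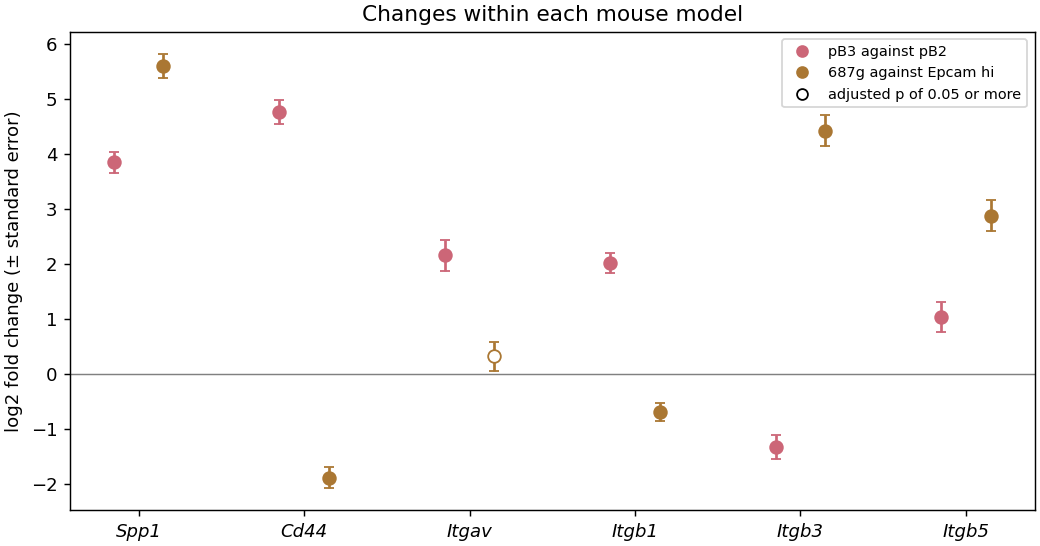
Fitted log2 fold changes of the 6 genes in pB3 against pB2 and in 687g against Epcam hi, with standard errors; filled points passed the threshold. Spp1 and Itgb5 lie above 0 in both pairs, whereas Cd44, Itgb1 and Itgb3 change sign between them.

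In the comparisons across mouse models, 4 of 6 genes were called in Epcam hi against pB2 (51.4% of all genes), 4 in 687g against pB3 (25.8%), 4 in Epcam hi against pB3 (29.4%) and 5 in 687g against pB2 (52.3%). These comparisons share lines with those above and with each other. In 687g against pB2 the 5 called genes were all higher, and Itgb3 was the exception. Epcam hi against pB2 left Spp1 and Itgb5 uncalled while Cd44, Itgav and Itgb1 were higher and Itgb3 lower.

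Levels of different genes were compared as CPM per kb of exon. The 5 receptor genes together held 115 to 122 CPM per kb in pB2, 610.2 to 614 in pB3, 1042 to 1062 in Epcam hi and 579.8 to 711 in 687g. The pB2 line, low in Spp1, thus also had the lowest sum, and Epcam hi, also low in Spp1, had the highest. Itgb1 and Cd44 together made up most of the sum in every line. Itgb5 was above Cd44 in 687g (95.8 against 80.4 CPM per kb) and in pB2 (9.69 against 7.46). In Epcam hi, Itgb1 and Cd44 held 727 and 299 CPM per kb, against 13.4 for Itgav, 13.0 for Itgb5 and 0.181 for Itgb3. The sum therefore does not rank the lines by each receptor. Itgb3 was highest in pB2 and lowest in Epcam hi, and the means of Itgav and Itgb5 were highest in 687g. The ratio of Spp1 to the receptor sum was 15.9 and 18.5 in 687g, 5.09 and 5.33 in pB3, 1.90 and 1.85 in pB2, and 0.229 and 0.203 in Epcam hi. These ratios did not overlap between any lines, whereas the receptor sums of pB3 lay within those of 687g; both are given without a test.

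Among the 3 beta chain genes, Itgb1 held 85.5% to 86.7% per kb in pB2, 94.4% to 94.5% in pB3, 98.1% to 98.3% in Epcam hi and 77.6% to 86.8% in 687g. Itgb5 held 21.6% and 12.5% in the 687g libraries, the highest shares of any line. Itgb3 held 4.61% and 5.16% in pB2, 0.751% and 0.673% in 687g, 0.507% and 0.554% in pB3, and 0.0216% and 0.0276% in Epcam hi. So beta 3 transcripts were a small part of the sum of these 3 genes in every line and almost none of it in Epcam hi. Other beta chain genes, such as Itgb6 and Itgb8, were not in that sum. Relative to Itgav, the sum of Itgb3 and Itgb5 was 5.99 and 5.91 in 687g, 4.61 and 3.93 in pB2, 1.12 and 0.862 in Epcam hi, and 1.39 and 1.39 in pB3. In 687g this ratio was alike in both libraries although Itgav and Itgb5 each differed about 2-fold between them. With the longest transcript as the gene length the ratio was below 1 in both libraries of pB3 (0.9845 and 0.9825) and of Epcam hi (0.798 and 0.612).

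**Figure D3:**
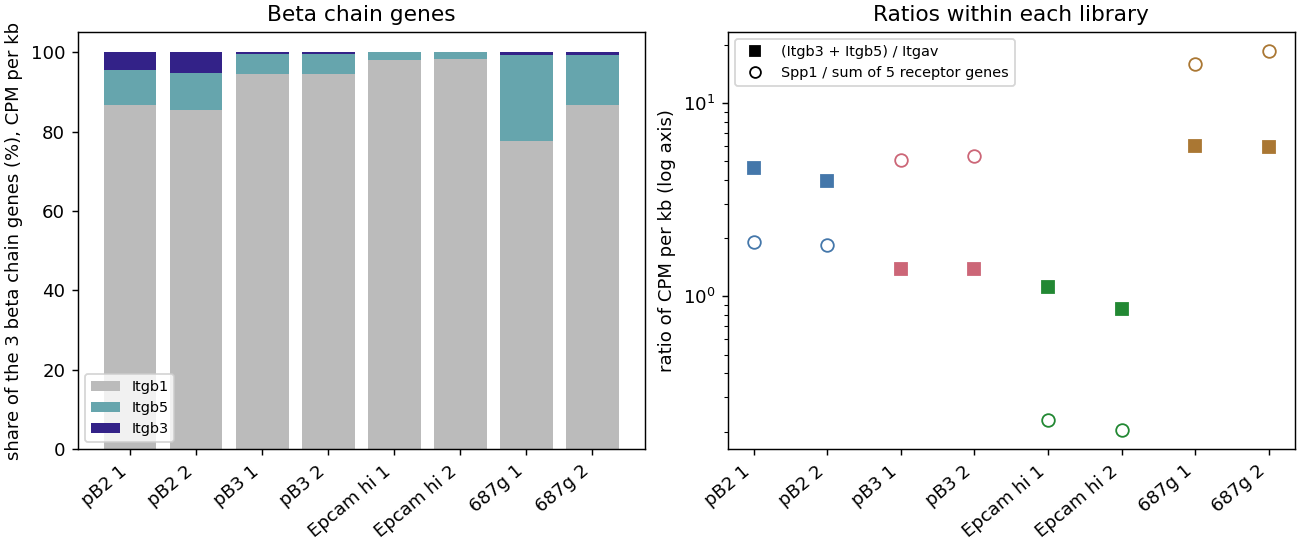
Left, the share of Itgb1, Itgb5 and Itgb3 in the summed CPM per kb of the 3 beta chain genes, for each library; right, on a log axis, the ratio of Itgb3 plus Itgb5 to Itgav (squares) and of Spp1 to the sum of the 5 receptor genes (circles). The Spp1 ratio runs from 0.203 in an Epcam hi library to 18.5 in a 687g library.

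Other integrin chains that bind osteopontin or pair with alpha v differed as widely. Itgb6, an epithelial partner of alpha v, had 20.8 and 19.5 CPM in Epcam hi, 3.41 and 4.46 in pB2, 1.88 and 2.14 in pB3, and 3 counts and 1 count in 687g. It was lower in 687g than in Epcam hi by 7.28 on the log2 scale (687g minus Epcam hi -7.28 ± 0.42, adjusted p = 1.18e-08; -8.045 without 687g replicate 1). Its lower level in pB3 than in pB2, -0.97 ± 0.30 (adjusted p = 0.0169), was not called without pB2 replicate 2 or either pB3 library. Itgb8, whose alpha v dimer activates latent TGF-beta, had 26.1 and 33.6 CPM in pB2 and 2.76 and 2.72 in pB3, with 1 count in all in Epcam hi and 1 in 687g, and fell by 3.45 ± 0.30 in pB3 (adjusted p = 5.20e-07). Of the 5 beta chain genes that can pair with alpha v, Itgb1 and Itgb6 were thus highest in Epcam hi, Itgb3 and Itgb8 in pB2, and Itgb5 in 687g.

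Of the alpha chains that join beta 1 to bind osteopontin, Itga5, the fibronectin receptor chain, had 146 and 135 CPM in 687g, 37.3 and 54.6 in Epcam hi, 99.0 and 103 in pB3, and 8.89 and 9.18 in pB2. It rose in both pairs, by 3.48 ± 0.22 and 1.61 ± 0.20 (adjusted p = 2.10e-08 and 2.23e-05). Itga8, an Arg-Gly-Asp receptor chain of kidney and smooth muscle, was at 52.7 and 58.6 CPM in pB2 and below 10 CPM in every other library. Itga4 and Itga9, which bind a motif next to Arg-Gly-Asp, were too low to test, at 0.503 CPM or less as line means.

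Spp1 sits in a row of related genes for acidic phosphoproteins of bone and tooth. Of these, Dspp had 0 counts in all libraries and Mepe 1 count in all. Ibsp, for bone sialoprotein, had 0 counts in pB2 and Epcam hi, 6 and 4 counts in pB3, and 31 and 40 in 687g, where it was at least 23.4-fold higher than in Epcam hi, taking 3 counts per line as the floor. Dmp1 had 3.85 and 3.61 CPM in pB2, 0.874 and 0.842 in pB3, 0 counts in Epcam hi, and 2.62 and 1.88 CPM in 687g. Ibsp was thus detected in the lines high in Spp1, at levels below 3 CPM, and its call in pB3 against pB2 ended without either pB2 library (adjusted p = 0.0521 and 0.0766).

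Enzymes that act on osteopontin gave 2 higher and 3 lower of 5 tested (7 listed) in pB3 against pB2, and 2 higher, 2 lower and 1 not called in 687g against Epcam hi, with medians of -0.89 and -0.10. For this and the later lists, the shares over all genes were 21.6% higher and 23.2% lower in pB3 against pB2. In 687g against Epcam hi they were 18.4% and 18.0%. Mmp3, a stromelysin that cuts osteopontin, had 1 and 5 counts in pB2, 371 and 400.4 CPM in pB3, 53.1 and 119 in 687g, and 28.9 and 24.2 in Epcam hi. It rose by 10.97 ± 0.52 in pB3 (12.19 without pB2 replicate 2) and by 1.70 ± 0.30 in 687g (1.04 without 687g replicate 2). Mmp9, a gelatinase, had 1 count in pB2 and was 256-fold higher in pB3 (counting interval 45.5 to 10160; fitted log2 7.68, or 7.02 and 9.96 without pB2 replicates 1 and 2), but was lower in 687g than in Epcam hi by 4.43 on the log2 scale (687g minus Epcam hi -4.43, and -3.75 to -5.30 without single libraries of the pair).

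Fam20c, the secretory kinase that phosphorylates osteopontin, had its highest level in a line low in Spp1: 27.0 and 31.2 CPM in pB2. It had 1.14 and 1.36 CPM in pB3, 2 and 3 counts in Epcam hi, and 4.19 and 7.32 CPM in 687g. Acp5, a phosphatase able to remove those phosphates, had 10.48 and 11.002 CPM in Epcam hi and 0 counts in both 687g libraries, at least 118-fold lower against the same floor. In the reporter model, Epcam hi thus held Acp5 with hardly any Fam20c, and 687g held Fam20c without detected Acp5.

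Other ligands of alpha v integrins gave 6 higher, 3 lower and 2 not called of 11 tested (12 listed) in pB3 against pB2, and 5 higher, 3 lower and 3 not called in 687g against Epcam hi, with medians of 1.89 and 1.27. Tnc (tenascin C) had 986 and 939 CPM in pB3, 346 and 212 in 687g, 698 and 771 in Epcam hi, and 3.11 and 3.08 in pB2, so it rose in pB3 (8.28 ± 0.30) and fell in 687g (-1.40 ± 0.22). Fbln5 (fibulin 5) was 133.5-fold lower in pB3 than in pB2 (counting interval 36.6 to 1108), with 2 counts in pB3. In 687g, Postn (periostin) was lower than in Epcam hi by 3.57 on the log2 scale (-3.57 ± 0.77). Without 687g replicates 1 and 2 the change was -7.87 and -2.67. Its counts were few, at 62 in Epcam hi (1.85 CPM) and 5 in 687g (0.140 CPM). Tgfb3, whose latent form binds alpha v integrins, was higher in 687g by 2.93 ± 0.21. Fn1 (fibronectin) rose in both pairs, by 3.40 ± 0.35 and 1.65 ± 0.33 (adjusted p = 2.80e-06 and 0.00130), the latter 0.88 without 687g replicate 1.

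**Figure D4:**
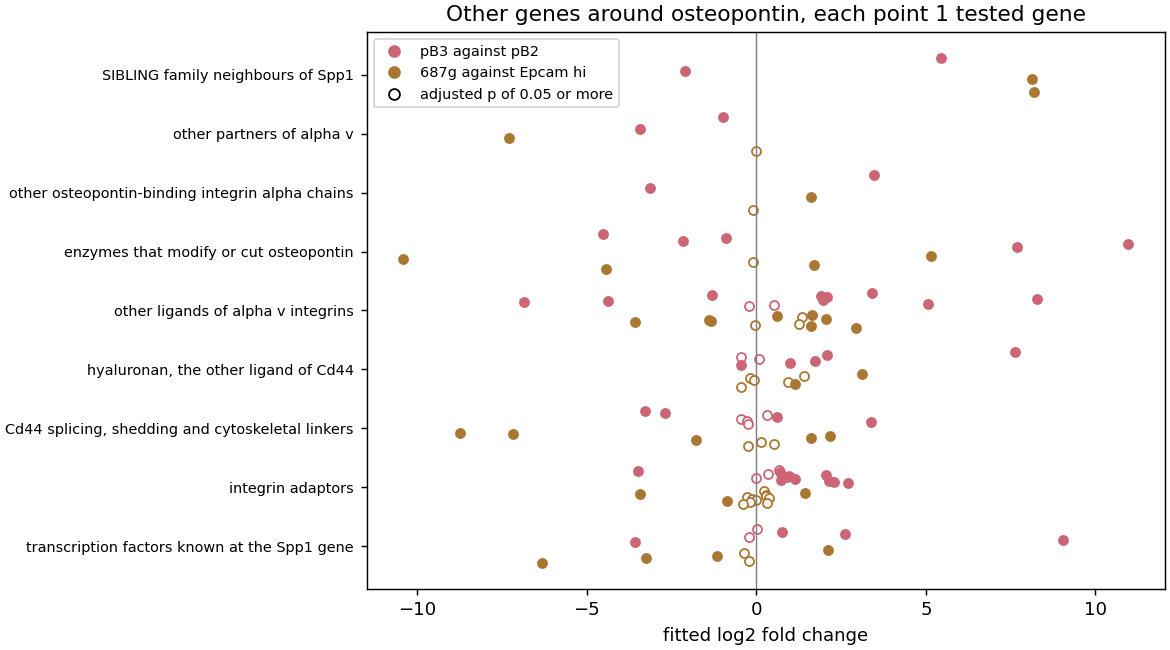
Fitted log2 fold changes of the tested genes of 9 lists around osteopontin in pB3 against pB2 and in 687g against Epcam hi; each point is 1 gene, filled where it passed the threshold, and fitted values against lines with 0 to 3 counts are no bounds. Integrin adaptors lie mostly above 0 in pB3 (9 of 13 higher, against 21.6% of all genes). In 687g they lie mostly near 0 (1 higher and 2 lower, against 18.4% and 18.0% of all genes). In both pairs, the calls of this list rested in part on single libraries.

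Genes for hyaluronan, the other ligand of CD44, gave 4 higher, 1 lower and 2 not called of 7 tested (8 listed) in pB3 against pB2, but 1 or 2 higher and 0 lower when any library of that pair was left out. In 687g against Epcam hi, 2 were higher and 5 not called (medians 0.98 and 0.92). Has2, the main hyaluronan synthase of mesenchymal cells, had 999.7 and 1591 CPM in 687g, 107 and 189.8 in Epcam hi, 311 and 332 in pB3, and 2.07 and 1.27 in pB2. It rose by 7.62 ± 0.39 and by 3.12 ± 0.30 (adjusted p = 2.98e-09 and 1.57e-06), and its highest line was that of Spp1. Has3 was at 2.18 CPM or less in every library, with a call in pB3 against pB2 (2.08 ± 0.69, adjusted p = 0.0245) that was lost with DESeq2 and without any library of that pair, and Cemip2, a surface hyaluronidase, rose in 687g by 1.15 ± 0.24 (adjusted p = 0.00202).

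Genes that splice, shed or anchor CD44 gave 2 higher, 2 lower and 4 not called of 8 in pB3 against pB2, and 2 higher, 3 lower and 3 not called in 687g against Epcam hi (medians -0.27 and -0.05). In pB3 against pB2 the lower genes numbered 4 with unscaled totals or with those lines alone, and the higher ones 1 without pB2 replicate 1 or either pB3 library. Esrp1 and Esrp2 encode the epithelial splicing factors that keep variable exons in Cd44. Esrp1 had 96.8 and 119 CPM in Epcam hi, 111 and 125 in pB2, 12.8 and 11.6 in pB3, and 6 and 2 counts in 687g, and Esrp2 had the same order of lines apart from Epcam hi, which was above pB2. Esrp1 fell by 3.27 ± 0.21 in pB3 and by 8.75 ± 0.33 in 687g (-9.55 without 687g replicate 1), and Esrp2 fell by 7.17 ± 0.40 in 687g. The lines with the most Cd44, Epcam hi and pB3, were thus far apart in Esrp1. Counts per gene do not show which Cd44 isoforms were made. Msn (moesin), which ties CD44 to actin, rose in pB3 by 3.38 ± 0.27 from 74.7 and 87.3 CPM in pB2.

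Integrin adaptors, which couple beta chains to actin and kinases, gave 9 higher, 1 lower and 3 not called of 13 in pB3 against pB2 (median 0.89). Over all genes 21.6% were higher there and 23.2% lower. With unscaled library totals Fermt1 lost its call (0.51, edgeR adjusted p = 0.0971). Without the filter on low counts Tln1 gained one (0.67, adjusted p = 0.00487). Without pB2 replicate 1, the rises of Fermt1, Parva and Ptk2 went from 0.71, 0.89 and 0.72 to 0.61, 0.78 and 0.66. Their calls were then lost. The call of Fermt1 was lost when any library of that pair was left out, and that of Ptk2 also without either pB3 library. The same list gave 1 higher, 2 lower and 10 not called in 687g against Epcam hi (median 0.0014), where 18.4% of all genes were higher and 18.0% lower. That comparison rested on single libraries. Without 687g replicate 2, Vcl went from 0.28 to 0.72, Parva from 0.37 to 0.76 and Tln1 from 0.225 to 0.714. Without 687g replicate 1, Vcl, Parva and Tln1 were at -0.26, -0.08 and -0.41. The number called in this list thus depended on which 687g library was used. Zyx (zyxin) rose in pB3 by 2.71 ± 0.26 and Tln2, for the second talin, fell by 3.48 (-3.48 ± 0.26), from 94.8 and 124 CPM in pB2 to 8.81 and 10.8. Fermt1, the epithelial kindlin, had 183 and 219 CPM in Epcam hi and 23.7 and 13.4 in 687g, a change of -3.43 ± 0.25 (adjusted p = 1.35e-07), while Tln2 was higher in 687g by 1.43 ± 0.29.

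Of 6 transcription factors known to act at the Spp1 gene, 3 were higher, 1 lower and 2 not called in pB3 against pB2, and 1 was higher, 3 lower and 2 not called in 687g against Epcam hi (medians 0.38 and -0.77). Fosl1, an AP-1 subunit, rose from 1 and 3 counts in pB2 to 67.6 and 72.1 CPM in pB3 (9.06 ± 0.34; 9.73 without pB2 replicate 2), and was also at 42.3 and 51.0 CPM in Epcam hi, where Spp1 was low. Myb was lower in pB3 than in pB2 by 3.59 (-3.59 ± 0.43; -4.18 without pB3 replicate 2) and had 1 count in 687g against 102 in Epcam hi. Fos was lower in 687g by 3.26 (-3.26 ± 0.40). Runx2, the osteoblast master regulator, had 48.5 and 28.0 CPM in 687g and 8.16 to 14.8 CPM in the 6 other libraries, so it was highest in the line with the most Spp1 but did not differ between pB3 and pB2 (0.01 ± 0.27, adjusted p = 0.984).

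In the promoter windows printed above, the Spp1 window held 1 match to AACCACA, beginning 129 bases before the start, and 2 to AGGAAG, of which 1 on the reverse strand. The Cd44 window held 0 and 3. Over all 32851 windows of that length, 4.40% held AACCACA and 29.5% AGGAAG. The AP-1 core TGANTCA, present in 6.75% of windows, was not in these stretches of Spp1, Cd44, Itgav, Itgb1 or Itgb5. AACCACA was in none of the 4 receptor windows searched. Matches are letters in a window and do not show binding.

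The genes whose patterns were nearest to each of the 6 were found by the root mean square difference in centred log2 CPM over the 8 libraries, among 9206 other genes of at least 10 CPM on average. Nearest to Spp1 were Mgst2, a microsomal glutathione transferase, at 0.348, then B4galt6 (0.428), Cdh23 (0.454), Pla2g7 (0.534) and Mgat3 (0.545). Mgst2 had mean levels of 82.7 CPM in 687g, 21.9 in pB3, 1.95 in pB2 and 1.15 in Epcam hi, and thus the low and high lines of Spp1 at a far lower level. Nearest to Cd44 were Ttc9 (0.359), Nes (0.364), which encodes the filament nestin, and Upp1 (0.399). Itgav was nearest to Lamb1 (0.142), a laminin chain gene, Src (0.162), a kinase gene that is also on the adaptor list, and Chd3 (0.172). Nearest to Itgb1 were Glul (0.119), Npdc1 (0.145) and Klf5 (0.153), nearest to Itgb3 Plekhh2 (0.205), Msrb3 (0.307) and H1fx (0.341), and nearest to Itgb5 Galc (0.322), Dlg5 (0.352) and Creb3l2 (0.358).

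The surroundings of each gene were examined for stretches of chromosome that differ between lines. Around Spp1, the 25 tested genes that start within 2 Mb had a median log2 fold change of 0.63 in pB3 against pB2 and -0.14 in 687g against Epcam hi, against 3.84 and 5.60 for Spp1. Over all genes the medians were 0.02 and -0.03. In pB3 against pB2, 11 of the 25 were called higher and 3 lower, where 21.6% and 23.2% of all genes were. In 687g against Epcam hi, 8 were higher and 6 lower, where 18.4% and 18.0% of all genes were. The 28 genes around Cd44 had a median of -0.62 in pB3 against pB2, opposite to the 4.75 of Cd44, with 5 called higher and 13 lower. Around Itgb3, 50 genes had medians of 0.01 and 0.11 in the same comparisons, against -1.33 and 4.42 for Itgb3. The medians around Itgav (19 genes), Itgb1 (12) and Itgb5 (38) lay between -0.34 and 0.45 in these comparisons.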

How the data were processed

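Reads of 8 mRNA libraries, 2 for each of 4 cell lines, were aligned with STAR 2.6.1a to GRCm38 (mm10) and counted per Ensembl gene with featureCounts, per the submitters' processing notes; the series' text adds that counting was for the reverse strand. How reads that map to several places were treated is not given in the sources used here. The deposited files hold raw whole-number read counts for 53379 genes. A library's 3 counts correspond to 0.159 to 0.222 CPM.

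Symbols, positions and exon lengths came from GENCODE M21 (GRCm38), which named 53274 of the IDs; promoters came from RefSeq (GRCm38.p6), matched by symbol for 5 of the 6 genes. edgeR 4.0.16 in R 4.3.3 fitted all libraries with 1 coefficient per line after filterByExpr (15890 genes) and TMM scaling; quasi-likelihood tests were two-sided, Benjamini-Hochberg adjusted over all genes tested, and called at an adjusted p under 0.05. Alternatives used DESeq2 1.42.0, limma 3.58.1 (voom), other scalings, no filter, only the lines compared, a replicate block, and each library left out.

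Members and lists were chosen with earlier results of these data known. Lists of 4 or fewer genes are named in full, and of longer ones the 2 called genes with the largest absolute log2 fold change in pB3 against pB2 and in 687g against Epcam hi. Fn1, and values of Fosl1 and Runx2 beyond that rule, were chosen with their values known. For lines at 0 counts, folds are bounds against 3 counts over the line, and with 1 to 3 counts they carry an exact 95% Poisson interval; both cover counting error only. Marker lists for epithelium, leukocytes, fibroblasts, endothelium, osteoblasts and platelets were checked.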

Additional observations from a re-analysis of the deposited data

Results flagged for a closer look

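For all 6 genes, the change in 687g against Epcam hi differed from that in pB3 against pB2 by a test of the difference itself (edgeR, adjusted over all genes). The differences, the first change minus the second on the log2 scale, were 1.758 for Spp1, -6.648 for Cd44, -1.831 for Itgav, -2.708 for Itgb1, 5.749 for Itgb3 and 1.846 for Itgb5. For Cd44 and Itgb1 the change was positive in pB3 against pB2 and negative in 687g against Epcam hi, and for Itgb3 the reverse. Each condition is a single line, so differences between lines and between mouse models cannot be told apart. For Spp1 and Itgb5 both changes were positive and differed in size. Of all genes, 37.7% passed this test.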

How the results depend on the processing

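The log2 values of the 6 genes in 7 comparisons (42 values) were recomputed under 15 alternatives each. Of 630 values, 603 kept direction and side of the threshold, 10 lost the call, 8 gained one, 9 changed sign without a call either as reported or under that alternative, and 0 called values reversed. The 27 exceptions fall on 10 of the 42 values, of which 8 are described above; the others were called in no alternative: Spp1 in Epcam hi against pB2 ran from -0.09 to 0.05, and Itgav in 687g against pB3 was -0.50 without 687g replicate 1. The number of the 6 genes called stayed within 1.5 times its main value in every alternative: leaving out single libraries gave 5 to 6 in pB3 against pB2, 5 to 6 in 687g against Epcam hi, 3 to 5 in Epcam hi against pB3, and 3 to 4 in 687g against pB3. Over all genes, 687g against pB3 called 4093 genes but 2474 and 2402 without pB3 replicates 1 and 2, and Epcam hi against pB3 called 4666 but 2854 and 2906. Unscaled library totals moved the median of all genes by -0.19 in pB3 against pB2, where the split went from 3427 higher and 3689 lower to 2766 and 4591, and by -0.23 in 687g against pB2 (from 4060 and 4249 to 3163 and 5289). The labels do not say whether same-numbered libraries were handled together. Their deviations correlated at -0.098 to 0.173, 4 of 6 below 0, which cannot settle whether they are paired. A replicate block changed 0 calls of the 6 genes (6 called in pB3 against pB2, 5 in 687g against Epcam hi) and gave 6995 genes for 7116 and 5655 for 5789 over all genes in those pairs. The longest transcript as gene length raised levels per kb by 1.02 to 1.52 times.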
